A study of Homo sapiens with 18 samples.

Results

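The 44 genes described here are nuclear genes of oxidative phosphorylation. Grouped as listed, with NDUFA4 kept in complex I, they encode 17 subunits of complex I, 4 of complex II, 6 of complex III, 8 of complex IV and 8 of ATP synthase, and the electron carrier cytochrome c. They were taken from a list of gene symbols by function and not by a cut on measured values, although earlier results of these data were known when the list was drawn up. All 44 were found among the 63677 genes of the count table, and all 44 were among the 18121 genes that passed the filter on low counts. The libraries came from WM989, an established human melanoma cell line, and each was made from poly(A) RNA. Cells had received DMSO, the solvent, or 4 µM EPZ5676 for 7 days. EPZ5676 inhibits DOT1L, the enzyme that methylates lysine 79 of histone H3. Each treatment was sequenced as 3 libraries of bulk cells, 3 of cells high for the surface receptors NGFR and EGFR, and 3 of cells low for both, which gave 6 groups and 18 libraries. The question was how these genes differ between high and low cells, and whether inhibition of DOT1L changes them in each population or changes that difference.

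Oxidative phosphorylation makes ATP in mitochondria. Complexes I and II pass electrons from NADH and succinate through ubiquinone to complex III, and cytochrome c carries them to complex IV, which reduces oxygen. Complexes I, III and IV pump protons across the inner membrane, and ATP synthase uses the returning protons to make ATP. Most subunits come from nuclear genes, many of which are known targets of the factors NRF1, GABPA, YY1 and ESRRA and of their coactivator PPARGC1A, which MITF can induce in melanocytic cells.

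RefSeq promoter windows (GRCh38.p14, 250 bases before to 30 after the start of the gene) were found for 33 of the 44 genes, and 5 short motifs were searched in them on both strands. The palindromic site of NRF1 lay in 7 of the 33 windows (21.2%) and in 6.2% of all 27305 RefSeq windows of this length. CCGGAAG, the site of ETS factors such as GABPA, lay in 10 (30.3%) against 10.3% of all windows. AAGATGGC, the site of YY1, lay in 4 (12.1%) against 2.53%, AAGGTCA, bound by nuclear receptors such as ESRRA, in 4 (12.1%) against 3.75%, and TGACGTCA, the site of CREB, in 3 (9.09%) against 1.97%. The windows of 4 genes are printed from 5′ to 3′ on the gene's strand, with the motif matches in capitals, to show how the motifs lie in named genes: SDHB, SDHA and SDHD held the most matches, and NDUFS7 was 1 of 3 genes with 2 kinds, beside NDUFA9 and COX8A. SDHB, the iron-sulfur subunit of complex II (chr1:17054003-17054282, minus strand), held 4 of the 5 motifs. SDHD, a membrane anchor of complex II (chr11:112086623-112086902, plus strand), held 3 kinds and NDUFS7, a complex I subunit of the electron path to ubiquinone (chr19:1383657-1383936, plus strand), held 2. SDHA, the flavoprotein of complex II (chr5:218070-218349, plus strand), held 4 copies of the NRF1 site. No match overlapped another in these 4 windows.
SDHB: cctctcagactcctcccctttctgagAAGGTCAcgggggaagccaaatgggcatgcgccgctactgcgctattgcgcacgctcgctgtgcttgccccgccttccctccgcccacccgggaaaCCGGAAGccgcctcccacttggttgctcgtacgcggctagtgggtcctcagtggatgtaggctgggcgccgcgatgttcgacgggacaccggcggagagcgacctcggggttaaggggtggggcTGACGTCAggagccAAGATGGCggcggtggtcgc
SDHD: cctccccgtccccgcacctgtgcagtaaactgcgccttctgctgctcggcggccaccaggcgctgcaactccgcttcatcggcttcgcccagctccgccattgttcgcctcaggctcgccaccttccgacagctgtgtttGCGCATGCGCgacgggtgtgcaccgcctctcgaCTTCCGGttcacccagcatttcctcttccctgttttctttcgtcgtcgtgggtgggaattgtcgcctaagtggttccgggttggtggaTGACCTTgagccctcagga
NDUFS7: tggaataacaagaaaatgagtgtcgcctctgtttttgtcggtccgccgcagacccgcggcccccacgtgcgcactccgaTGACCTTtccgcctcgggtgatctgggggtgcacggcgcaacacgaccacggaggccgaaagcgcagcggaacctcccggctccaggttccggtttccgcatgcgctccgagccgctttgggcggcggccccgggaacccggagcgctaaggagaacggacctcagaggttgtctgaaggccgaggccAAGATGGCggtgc
SDHA: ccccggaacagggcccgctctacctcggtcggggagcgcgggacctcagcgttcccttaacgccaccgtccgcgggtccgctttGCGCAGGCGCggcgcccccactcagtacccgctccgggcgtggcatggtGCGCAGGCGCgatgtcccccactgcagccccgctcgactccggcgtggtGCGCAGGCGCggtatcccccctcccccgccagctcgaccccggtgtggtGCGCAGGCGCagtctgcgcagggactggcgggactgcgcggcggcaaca
A match is a description of letters and not a bound site. The 20 genes with a match of any kind had a median log2 difference between high and low DMSO cells of -0.43, and the 13 without one had -0.45.

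The libraries held 13383741 to 26311674 gene counts. Reads on no annotated feature made up 12.8% to 28.7% of a library, and 6 libraries lay over 16%: bulk replicates 1 and 3, high replicates 1 and 2 and low replicate 1 of EPZ5676, and high replicate 3 of DMSO. The DMSO bulk replicate 1 library stood apart from its group, at -30.54 on the first principal component against 45.06 and 44.17. It held 220 CPM of NGFR against 12.6 and 9.24 in the other DMSO bulk libraries. The 8 melanoma markers, among them SOX10, MITF and PMEL, were all detected. They summed to 11300 to 11800 CPM in DMSO low cells but to only 1230 to 1450 CPM in DMSO high cells. The 9 fibroblast markers summed to 73.7 to 77.4 CPM in DMSO low and 1180 to 1510 CPM in DMSO high cells. In DMSO bulk replicate 1 they summed to 465 CPM, and in EPZ5676 high cells to 655 to 806 CPM. Of the markers of other cell types, PECAM1 of endothelium was at 0 in every library, and 6 leukocyte markers together reached at most 2.72 CPM. The 6 keratinocyte markers summed to 25.2 to 43.3 CPM, nearly all of it KRT10, with KRT1 at 0, and the 6 endothelial markers to 2.51 to 13.7 CPM, most of it VWF. Levels are given as CPM, counts relative to the TMM-adjusted size of each library. They are not divided by gene length and are compared only between libraries. A gene is called where edgeR's quasi-likelihood test gave a Benjamini-Hochberg adjusted p under 0.05 over all 18121 genes. Differences are log2 fold changes ± SE with 3 libraries per group, and levels are means ± SD (n = 3). SE and p rest on a spread estimated from all 18 libraries, DMSO bulk replicate 1 among them, and not only from the groups compared. Replicates are labelled as separate samples but not as separate cultures, so each p measures the spread between these samples.

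Nuclear oxidative phosphorylation genes were mostly lower in high than in low cells under DMSO. Of the 44 genes, 33 were called lower, 2 higher and 9 not called. Over all genes tested, 56.3% were called, 26.7% lower and 29.6% higher. The median log2 difference of the 44 genes was -0.45, against 0.03 for all tested genes, and 42 of the 44 values were negative. In 27 genes all 3 high libraries lay below all 3 low libraries, as in 28.7% of all genes, and in 2 genes all lay above, as in 31.6%. The summed level of the 44 genes was 4550, 5160 and 4480 CPM in DMSO high cells and 6570, 7140 and 7420 CPM in DMSO low cells. The groups of summed levels did not overlap, and high replicate 2 lay above the other high libraries. In these bulk RNA samples, fewer cells of a type and less RNA per cell cannot be told apart.

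**Figure D1:**
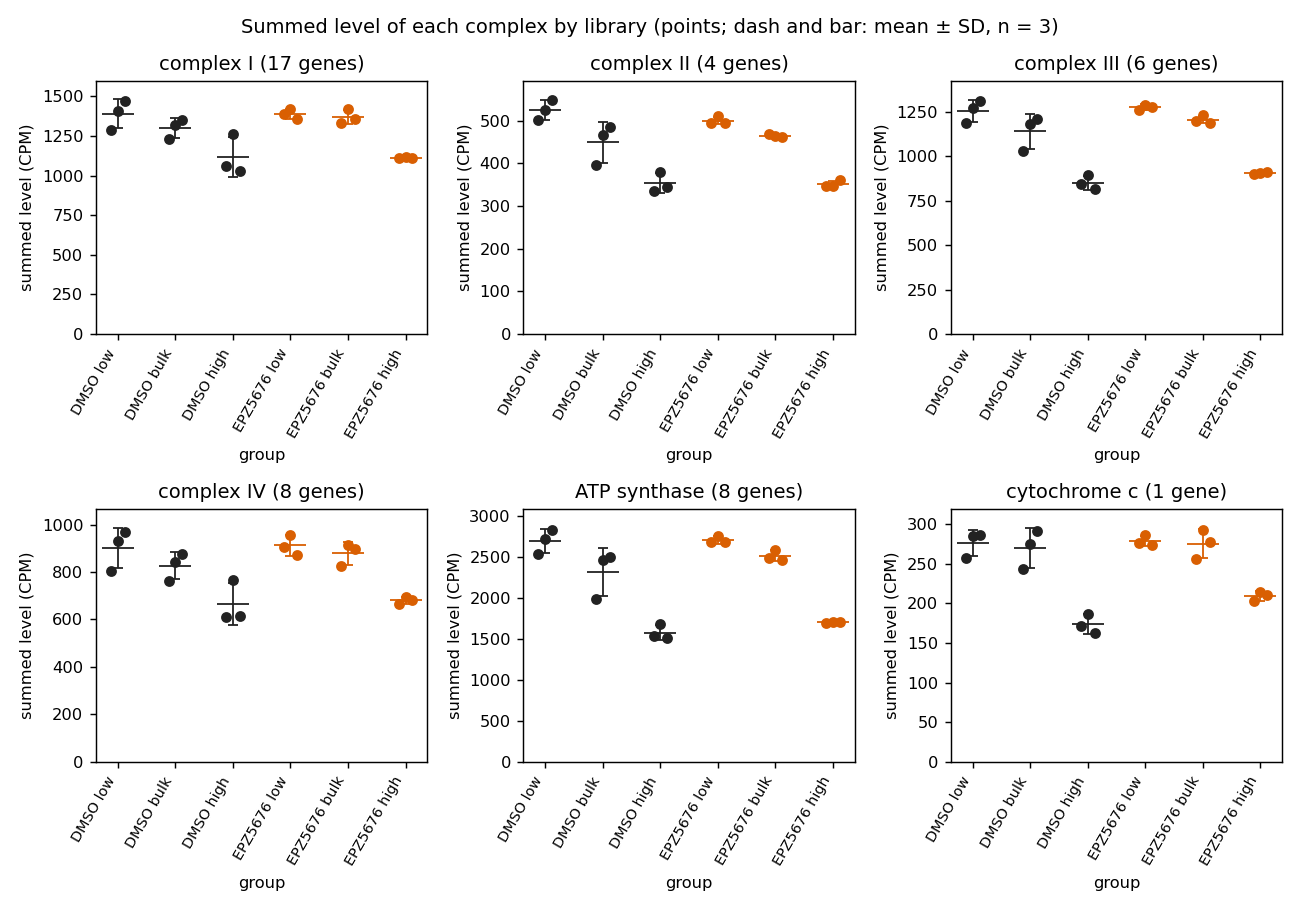
Summed level (CPM) of the genes of each complex in every library, by group on the x axis; points are libraries, and the dash and bar give the mean ± SD of 3 libraries. The ATP synthase genes summed to 1510 to 1680 CPM in DMSO high and 2530 to 2830 CPM in DMSO low cells.

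ATP synthase had the most negative median log2 difference of the 5 complexes, -0.80, with 7 of its 8 genes called lower in DMSO high cells. ATP5MC3 (ENSG00000154518), a gene for the membrane c-ring subunit that turns with the proton flow, measured 174, 204 and 185 CPM in high and 338, 370 and 402 CPM in low cells. Its difference was -0.98 ± 0.10 (adjusted p = 2.69e-07). ATP5MC1 (ENSG00000159199), a separate gene for the same c-ring protein, measured 80.2, 83.8 and 80.6 CPM in high and 134, 167 and 158 CPM in low cells. High cells thus held about 53.2% of the ATP5MC1 level of low cells by the fitted difference of -0.91 ± 0.08 (adjusted p = 1.86e-08). In both c-ring genes every high library lay below every low library. The catalytic head followed the same direction: ATP5F1B, the beta subunit, had 632 ± 32.1 CPM in high and 1100 ± 68.4 CPM in low cells, a difference of -0.79 ± 0.07 (adjusted p = 4.97e-09). The alpha subunit ATP5F1A differed by -0.63 ± 0.06 and the gamma shaft ATP5F1C by -0.86 ± 0.07, with adjusted p of 5.31e-08 and 6.15e-09. ATP5PB of the peripheral stalk differed by -0.80 ± 0.09 and ATP5F1D, the delta subunit, by -0.62 ± 0.10. The exception was ATP5PO, also of the stalk, at 11.4, 16.6 and 14 CPM against 15.5, 18.2 and 19.1 CPM. Its groups overlapped and its difference of -0.33 ± 0.14 was not called (adjusted p = 0.0548). Several alternatives did call it lower, among them RLE scaling and DESeq2 with adjusted p of 0.0457 and 0.0475.

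All 4 genes of complex II were called lower, with a median of -0.66. SDHB (ENSG00000117118) measured 78.1, 91.3 and 73.7 CPM in high and 147, 163 and 171 CPM in low cells, a difference of -0.98 ± 0.09 (adjusted p = 5.71e-08). SDHC (ENSG00000143252), which with SDHD holds the complex in the membrane, measured 27.2, 30.5 and 29.5 CPM against 50.3, 53.1 and 55.9 CPM. The SDHC difference was -0.87 ± 0.08 (adjusted p = 1.12e-08). Every high library of SDHB and SDHC lay well below the lowest low library. The other two genes differed less: SDHD by -0.45 ± 0.07, from 36.1 ± 1.02 CPM in low to 26.4 ± 0.607 CPM in high cells, and SDHA by -0.34 ± 0.06, from 275 ± 8.83 to 218 ± 13.3 CPM. SDHA and SDHD also did not overlap between the groups. SDHB and SDHA thus sat at the far and the near end of their complex although both encode parts of its soluble catalytic portion.

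Complex III had 5 of 6 genes called lower, with a median of -0.54. CYC1 (ENSG00000179091), the cytochrome c1 subunit that hands electrons to cytochrome c, measured 278, 281 and 276 CPM in high and 483, 508 and 546 CPM in low cells. Its difference of -0.88 ± 0.07 had the smallest adjusted p of all 44 genes, 3.4e-09, and its 3 high libraries were nearly equal. UQCRC2, a core protein of the complex, measured 103, 93.3 and 100 CPM against 165, 170 and 149 CPM, a difference of -0.71 ± 0.08 (adjusted p = 1.19e-07). The partner core protein UQCRC1 changed far less, from 333 ± 13.5 to 291 ± 11.9 CPM, or by -0.20 ± 0.05 (adjusted p = 0.00157). UQCRFS1, the Rieske iron-sulfur protein, differed by -0.65 ± 0.07 and the small subunit UQCRB by -0.34 ± 0.13, the latter with overlapping groups (adjusted p = 0.0357). Cytochrome c itself, CYCS (ENSG00000172115), measured 172, 187 and 162 CPM in high and 257, 285 and 286 CPM in low cells. The groups of CYCS did not overlap, and the difference was -0.67 ± 0.07 (adjusted p = 6.35e-08).

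Complex IV had 5 of 8 genes called lower, with a median of -0.44. COX5A (ENSG00000178741), a nuclear subunit on the matrix side, measured 68.6, 63.1 and 63.7 CPM in high and 113, 139 and 121 CPM in low cells, a difference of -0.93 ± 0.11 (adjusted p = 6.54e-07). COX7C, a small membrane subunit, measured 87.3, 79.8 and 83.5 CPM against 113, 138 and 127 CPM, a difference of -0.59 ± 0.08 (adjusted p = 2.5e-06). Neither gene overlapped between the groups. COX4I1, the largest nuclear subunit, differed by -0.43 ± 0.07 and COX7A2 by -0.45 ± 0.08, also without overlap. COX5B, at the other end, measured 91.8, 133 and 92.8 CPM in high and 91.7, 110 and 126 CPM in low cells. Its groups covered the same range, and its difference was -0.04 ± 0.13 (adjusted p = 0.806).

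Complex I had the widest range: 11 of its 17 genes were called lower, 2 higher and 4 not called, with a median of -0.37. NDUFS7 (ENSG00000115286) measured 59.2, 68.2 and 56.7 CPM in high and 83.8, 93.1 and 95.4 CPM in low cells, a difference of -0.56 ± 0.08 (adjusted p = 2.99e-06). NDUFB5, a subunit of the membrane arm, measured 49.9, 48.3 and 47.6 CPM against 65.5, 69.1 and 74.7 CPM, a difference of -0.52 ± 0.07 (adjusted p = 2.75e-06). Both genes were separated between the groups. NDUFS1, the largest subunit of the peripheral arm, differed by -0.34 ± 0.05, and the membrane arm subunit NDUFB10 by -0.51 ± 0.08. NDUFA4, long listed with complex I and now known as a complex IV subunit but counted here with complex I, differed by -0.38 ± 0.09 (adjusted p = 0.00163). NDUFS8 (ENSG00000110717), another iron-sulfur subunit of the path to ubiquinone, ran the opposite way, with 60.5, 67.4 and 60.5 CPM in high and 51.2, 54 and 54.7 CPM in low cells. All 3 high libraries of NDUFS8 lay above the low ones, and the difference was 0.24 ± 0.06 (adjusted p = 0.00318). The other gene called higher, NDUFV2, is described with the counting limits below.

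**Figure D2:**
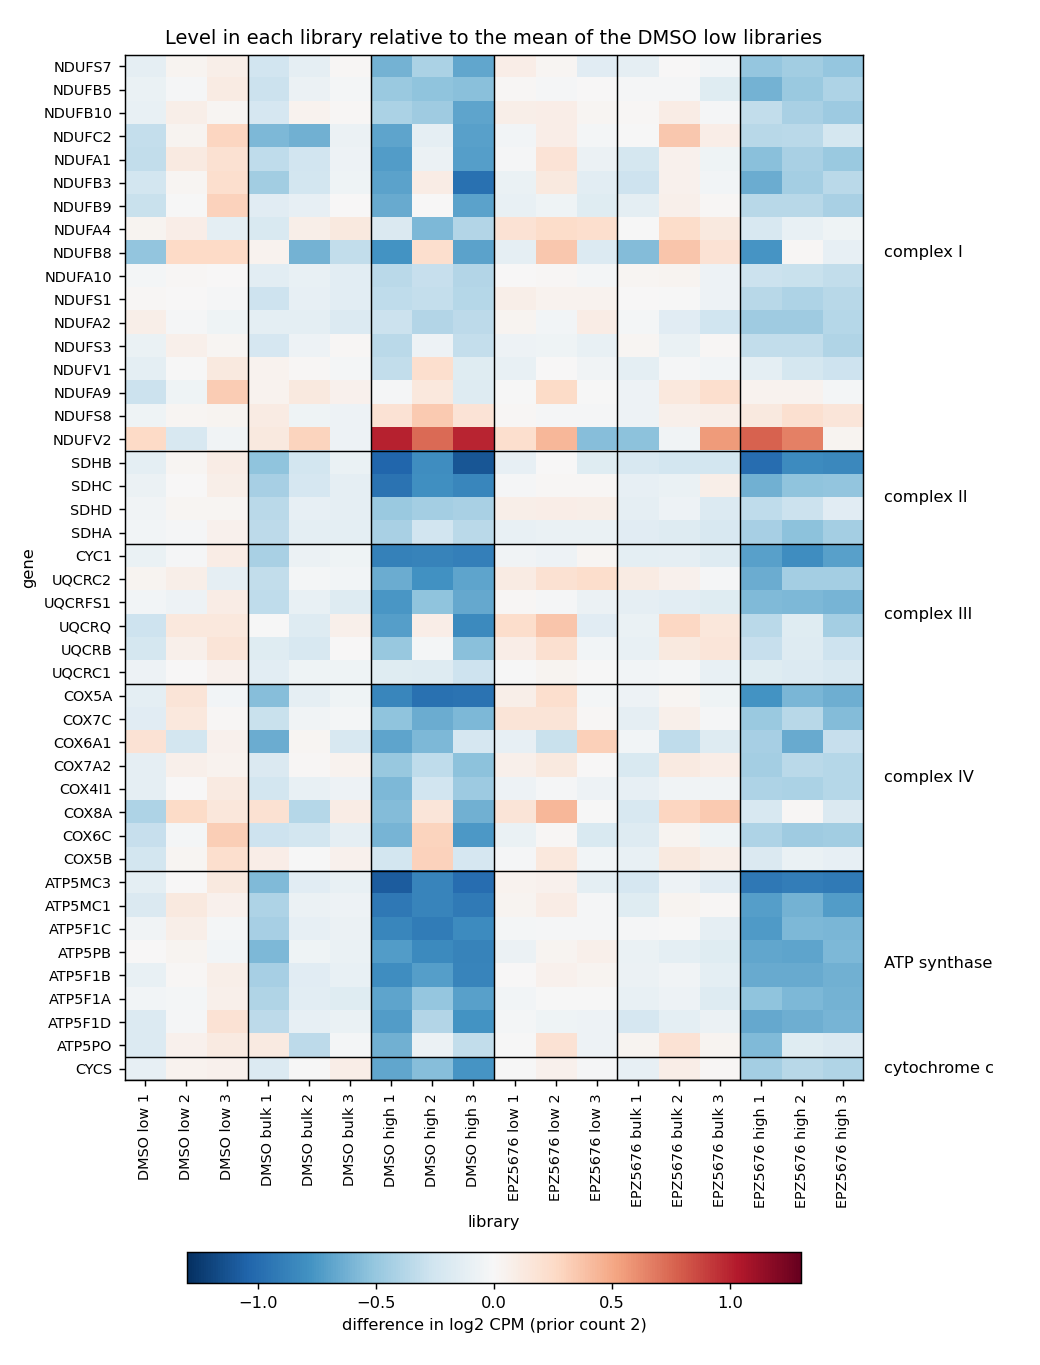
Level of each of the 44 genes (rows, grouped by complex) in each of the 18 libraries (columns), as the difference in log2 CPM (prior count 2) from the mean of the DMSO low libraries; blue is lower and red higher. The high columns of both treatments are blue in most rows, and NDUFS8 and NDUFV2 are red there.

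One DMSO high library carried much of the disagreement between replicates. DMSO high replicate 2 lay at or above the lowest DMSO low library in 16 of the 44 genes, against 4 in replicate 1 and 5 in replicate 3. COX6C, a small complex IV subunit, measured 61.4, 114 and 55.8 CPM in DMSO high and 75.8, 92.2 and 117 CPM in DMSO low cells. NDUFB3 of the complex I membrane arm measured 40.2, 69.6 and 33.1 CPM against 55.1, 66 and 75.6 CPM. In both genes replicate 2 reached the low range while replicates 1 and 3 stayed below it. Their differences of -0.30 ± 0.22 and -0.45 ± 0.23 were not called (adjusted p = 0.279 and 0.107). These 2 genes, and NDUFB9 and UQCRB in the plot of 8 genes, were chosen after their values were seen. Replicate 2 exceeded the mean of replicates 1 and 3 by more than 1.3 times in 12 genes (NDUFB8, COX6C, NDUFB3, UQCRQ, COX8A, NDUFB9, NDUFA1, NDUFC2, COX5B, UQCRB, NDUFV1 and ATP5PO) and lay below it in 10. Without it, 40 genes were called lower and 2 higher, with a median of -0.63, where 25.2% of the 18476 genes tested were called lower and 27.9% higher. COX6C, NDUFB3 and COX5B were then called lower at -0.70, -0.84 and -0.24 (adjusted p = 0.000358, 0.000397 and 0.0409). Under EPZ5676, 3, 5 and 3 genes of the high libraries reached the low range.

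**Figure D3:**
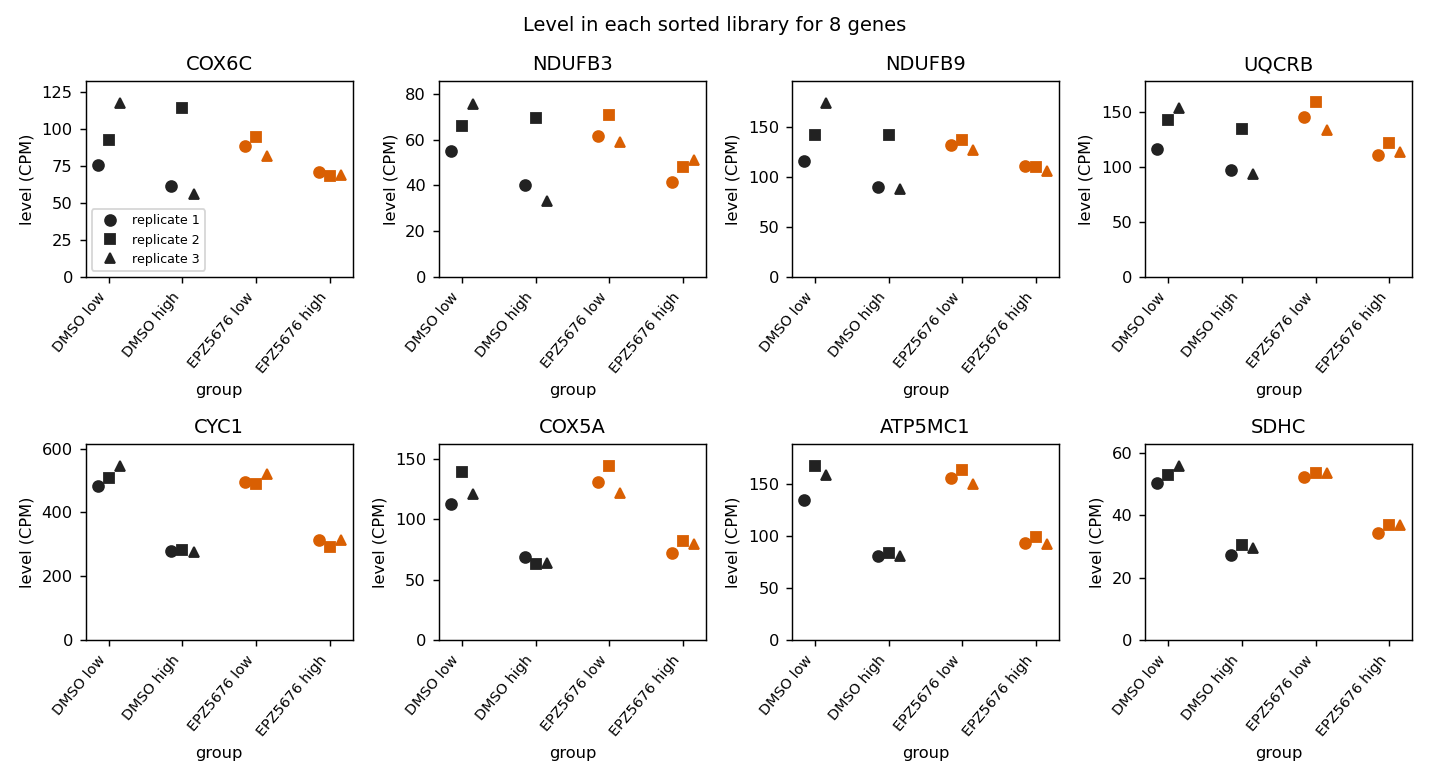
Level (CPM) of 8 genes in each sorted library, by group on the x axis, with the replicate number as the marker shape. COX6C, NDUFB3, NDUFB9 and UQCRB are high in DMSO high replicate 2 (square), where CYC1, COX5A, ATP5MC1 and SDHC are close to the other 2 high libraries.

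Genes with shorter transcripts tended to vary more between replicates, with exceptions. Over the 44 genes, the median coefficient of variation within groups was related to the median length of protein-coding transcripts with r = -0.437 on log scales and rho = -0.465, as a description across genes that share the same 18 libraries. The 10 genes that varied most had a median length of 614 bases, against 733 for the other 34, and among the 10 NDUFV2 (930) and NDUFA1 (766) were longer than that. COX7A2 (423), SDHC (460) and ATP5MC1 (503) were shorter than 614 and not among the 10. The 10 also held the genes with the fewest counts over all 18 libraries. These were NDUFV2 (380), NDUFB8 (1506), NDUFA9 (3640), NDUFC2 (5287), ATP5PO (5717) and COX6A1 (7874). All of the 10 but NDUFC2 and NDUFB3 are among the genes of uncertain counting described below. The 10 had coefficients of 9.77% to 27.7%, and 6 of them were not called between DMSO high and low cells. The other 34 had 1.68% to 9.02%, and 3 were not called. NDUFB8 was the most variable at 27.7%, with 2.67, 5.45 and 2.84 CPM in DMSO high and 3.24, 5.57 and 5.57 CPM in DMSO low cells. COX8A was the most variable complex IV gene at 19.6%, with 24.4, 40.4 and 23.5 CPM against 27.4, 43 and 40.1 CPM. Neither gene was called, and in both the high replicate 2 library lay within the low range. The parts of transcript length, count level and counting in these calls were not tested.

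Counting was uncertain for 11 of the 44 genes. By the GENCODE 29 annotation, which may differ from the one used for counting, 9 genes share over 20% of their exon bases with another gene, and NDUFA9 and SDHA have more than 10% as many counts on named pseudogenes. Those 9 are NDUFA1, NDUFB8, NDUFS7, NDUFV1, NDUFV2, UQCRQ, COX6A1, COX8A and ATP5PO. NDUFV2, a complex I gene of the NADH-oxidising module, held 380 counts in all 18 libraries together, while its pseudogene NDUFV2P1 held 2720. NDUFV2 measured 1.88, 1.54 and 1.87 CPM in DMSO high and 1.08, 0.753 and 0.854 CPM in DMSO low cells, a difference of 0.97 ± 0.33 (adjusted p = 0.0159). NDUFV2P1 differed the other way, by -0.64 ± 0.14 (adjusted p = 0.000622), and how reads were divided between the 2 genes is not given in the sources used here. The NDUFV2 call was also lost without DMSO low replicate 2 (0.86, adjusted p = 0.06). COX6A1 held 7874 counts and COX6A1P2 6382, and both were lower in DMSO high cells, by -0.50 ± 0.19 and -0.51 ± 0.19. Of the 33 genes of certain counting, 29 were called lower, 1 higher and 3 not, with a median of -0.51. Of the 11 uncertain ones, 4 were called lower and 1 higher. These counts are for DMSO high against low cells, where 26.7% of all genes were called lower and 29.6% higher.

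Most of these genes were also lower in high cells under EPZ5676. Of the 44 genes, 30 were called lower, 1 higher and 13 not, where 48.9% of all genes were called, 23.1% lower and 25.8% higher. The median log2 difference was -0.45, against 0.02 for all tested genes. All 30 had also been called lower under DMSO, which is 90.9% of the 33 DMSO calls and 100% of the EPZ5676 calls. COX6A1, NDUFB9 and NDUFC2 were called lower only under DMSO, and whether they differ between treatments was tested by the interaction, which called none of them. In 39 genes the libraries did not overlap, high below low, as in 28.8% of all genes, and in 1 gene high lay above low, as in 31.5%. Across the 44 genes the differences under DMSO and under EPZ5676, which come from different libraries, had r = 0.958 and rho = 0.901 as a description.

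ATP5MC3 had the most negative difference, with 194, 198 and 195 CPM in EPZ5676 high and 380, 384 and 338 CPM in EPZ5676 low cells, a difference of -0.91 ± 0.10 (adjusted p = 1.12e-06). SDHB measured 80.7, 91 and 89.5 CPM against 148, 160 and 143 CPM, or -0.79 ± 0.09 (adjusted p = 1.39e-06). CYC1 measured 313, 292 and 314 CPM against 495, 488 and 521 CPM, or -0.71 ± 0.07 (adjusted p = 1.09e-07). In each of these 3 genes the high libraries were close to each other and below all low libraries. COX5A differed by -0.76 ± 0.10, ATP5MC1 by -0.72 ± 0.08, UQCRC2 by -0.69 ± 0.08 and CYCS by -0.41 ± 0.07. By complex, 9 of 17 complex I genes, 4 of 4 complex II genes, 5 of 6 complex III genes, 4 of 8 complex IV genes and 7 of 8 ATP synthase genes were lower. COX5B and ATP5PO were again not called, at -0.16 ± 0.13 and -0.34 ± 0.14 (adjusted p = 0.347 and 0.0529). Several alternatives called ATP5PO lower, among them RLE scaling, DESeq2 and limma-voom (adjusted p = 0.0455, 0.0467 and 0.044). An edgeR fit of only the groups compared called both COX5B and ATP5PO lower (adjusted p = 0.00866 and 0.00638), where 27.7% of all genes were called lower. NDUFS8 was again higher, with 58.2, 61.5 and 59.4 CPM against 53.8, 52.6 and 52.6 CPM, a difference of 0.17 ± 0.06 (adjusted p = 0.0299). That call was lost without EPZ5676 high replicate 2 or 3, or without any 1 of the 3 EPZ5676 low libraries, with values of 0.15 to 0.18. NDUFV2 was at 0.45 ± 0.34 and not called (adjusted p = 0.288).

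**Figure D4:**
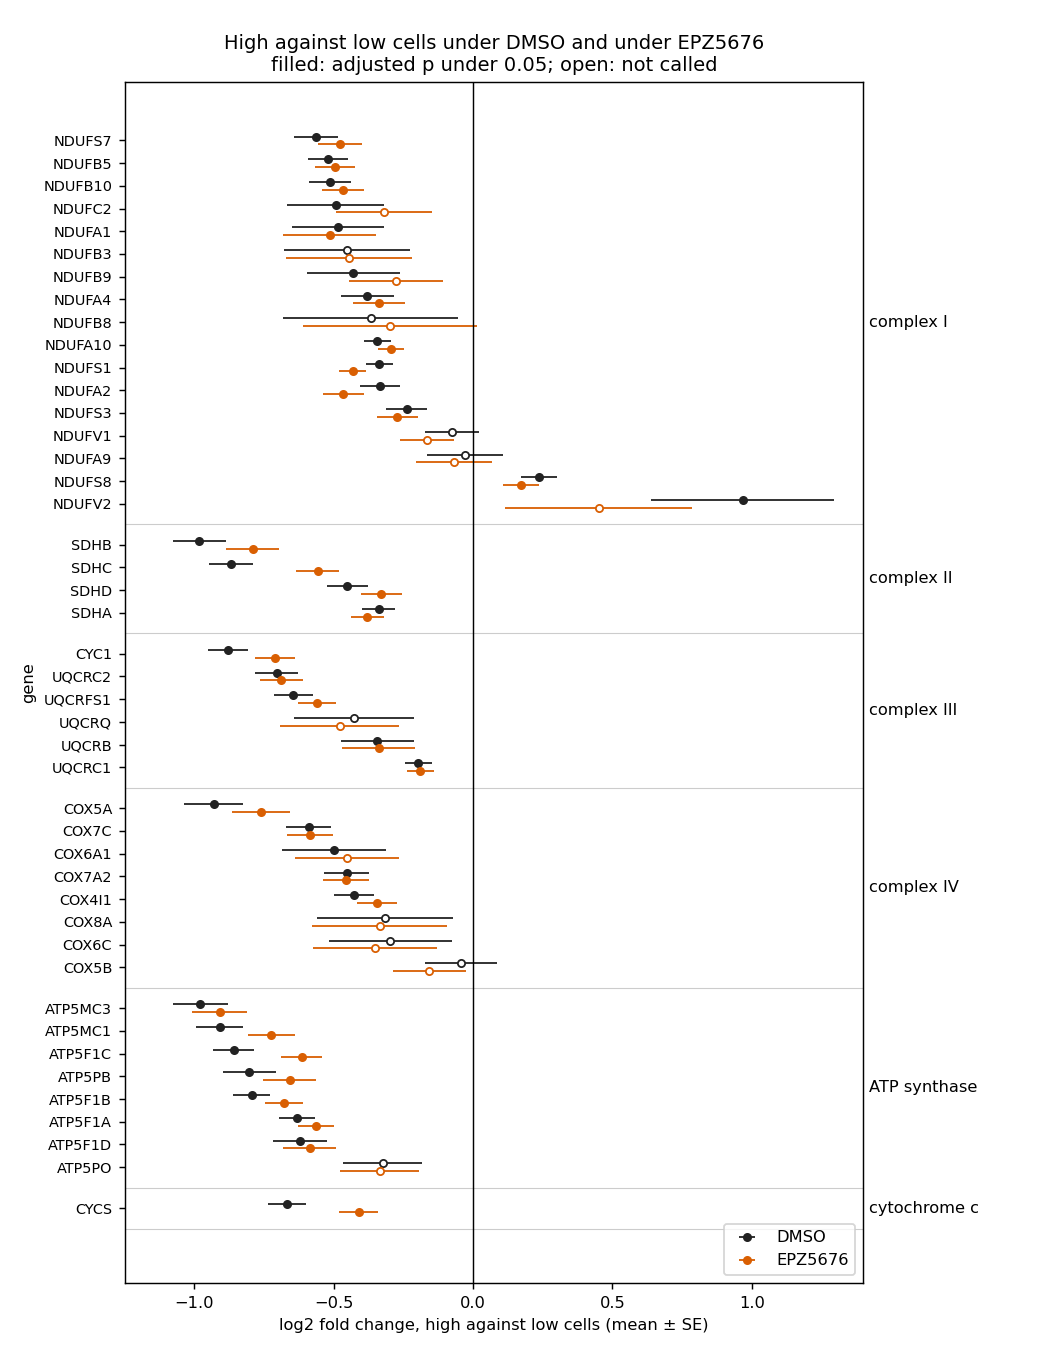
Log2 fold change of high against low cells (x axis, ± SE) for each of the 44 genes (y axis, by complex) under DMSO (black) and EPZ5676 (orange); filled points were called. The points lie left of 0 in 42 genes under each treatment, and ATP synthase genes reach -0.98 under DMSO.

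Bulk cells lay between the sorted populations in most genes. The mean DMSO bulk level was below the mean DMSO low level in 39 of 44 genes and between the high and low means in 39, and under EPZ5676 the bulk mean lay between them in 34. The summed level of the 44 genes was 5650, 6540 and 6710 CPM in DMSO bulk and 6580, 6910 and 6650 CPM in EPZ5676 bulk cells. DMSO bulk replicate 1, the library that stood apart, was the lowest DMSO bulk library in 32 of 44 genes.

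In bulk cells, 0 of the 44 genes were called between EPZ5676 and DMSO by edgeR, DESeq2 or limma-voom, where edgeR called 0.728% of all genes, 0.232% lower and 0.497% higher. The median log2 difference was 0.09, 41 values were positive, and 6 genes had an unadjusted p under 0.05. NDUFC2, a membrane arm subunit of complex I, measured 16.7, 21.5 and 17.9 CPM with EPZ5676 and 11.2, 10.8 and 15.9 CPM with DMSO, a difference of 0.57 ± 0.17 (adjusted p = 0.167). It was called without DMSO bulk replicate 3, at 0.77 (adjusted p = 0.0303). NDUFS1 measured 203, 201 and 194 CPM against 167, 188 and 183 CPM, or 0.15 ± 0.05 (adjusted p = 0.187). NDUFC2 and NDUFS1 did not overlap between the treatments, and neither did SDHC (0.21 ± 0.08), NDUFA10 of complex I (0.12 ± 0.05) and UQCRC2 (0.17 ± 0.08). These 5 genes lay higher with EPZ5676, a pattern held by 8.21% of all genes, while 0 genes lay lower, as 7.64% of all genes did. Without DMSO bulk replicate 1 the median difference of the 44 genes was 0.01, 29 values were positive and 15 negative. SDHC was then at 0.13 ± 0.07 and UQCRC2 at 0.08 ± 0.06, while CYCS, SDHA, SDHB and SDHD had negative values of -0.04, -0.05, -0.07 and -0.01, none of them called.

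In high cells, 2 of the 44 genes were called higher with EPZ5676 and 0 lower, where 3% of all genes were called, 1.95% higher and 1.04% lower. SDHC measured 34.4, 36.9 and 37.1 CPM with EPZ5676 and 27.2, 30.5 and 29.5 CPM with DMSO, a difference of 0.31 ± 0.08 (adjusted p = 0.0345). CYCS measured 203, 215 and 211 CPM against 172, 187 and 162 CPM, a difference of 0.27 ± 0.07 (adjusted p = 0.0367). Neither gene overlapped between the treatments. ATP5F1C, at 68.8, 77 and 76.3 CPM against 63.9, 61.4 and 65.1 CPM, differed by 0.22 ± 0.07 and was not called (adjusted p = 0.112). NDUFA4 differed by 0.26 ± 0.09 (adjusted p = 0.155) and SDHD by 0.20 ± 0.07 (adjusted p = 0.162). In 10 genes all EPZ5676 libraries lay above all DMSO libraries, as in 12.7% of all genes, and in 1, SDHA, all lay below, as in 12.1%. The median difference of the 44 genes was 0.06, with 32 values positive.

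The count in high cells depended on single libraries. It was 0 without DMSO high replicate 1 or 3, EPZ5676 high replicate 2 or 3, or EPZ5676 low replicate 2 or 3, and 1 without EPZ5676 bulk replicate 3, high replicate 1 or low replicate 1. Leaving out the 6 libraries of high no-feature share left EPZ5676 high replicate 3 alone in its group. That fit is read only by its values, 0.37 for SDHC and 0.24 for CYCS. Without DMSO bulk replicate 1, a library of neither group, 18784 genes passed the filter and 10 of the 44 genes were called higher: SDHC, CYCS, NDUFA4, UQCRC2, CYC1, COX5A, ATP5F1B, ATP5F1C, ATP5PB and ATP5MC1. In that fit 10.7% of all genes were called, 5.85% higher, and SDHC and CYCS had adjusted p of 0.00194 and 0.000801. The differences themselves ranged between 0.27 and 0.37 for SDHC over the alternatives and between 0.22 and 0.33 for CYCS. The melanoma markers summed to 1850 to 2020 CPM in EPZ5676 high and 1230 to 1450 CPM in DMSO high cells, with DCT and S100B called higher. The 9 fibroblast markers summed to 655 to 806 against 1180 to 1510 CPM, with LUM called higher and none lower. The part of these marker levels in the SDHC and CYCS values was not tested.

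In low cells, 0 of the 44 genes were called by edgeR, DESeq2 or limma-voom, where edgeR called 1.04% of all genes, 0.326% lower and 0.712% higher. The median difference was 0.01 and 2 genes had an unadjusted p under 0.05. UQCRC2 measured 173, 185 and 189 CPM with EPZ5676 and 165, 170 and 149 CPM with DMSO, or 0.18 ± 0.08 (adjusted p = 0.331). NDUFA4 measured 81.5, 84.3 and 83.3 CPM against 73.1, 75.9 and 65.4 CPM, or 0.22 ± 0.09 (adjusted p = 0.339). These were the only 2 of the 44 genes with an unadjusted p under 0.05, and NDUFA4 held the largest difference of all 44. COX7C differed by 0.11 ± 0.08, NDUFS1 by 0.06 ± 0.05 and SDHA by -0.09 ± 0.06. In 4 genes (UQCRC2, NDUFA4, NDUFS1 and SDHD) all EPZ5676 libraries lay above, as in 11.6% of all genes, and in SDHA all lay below, as in 11.5%. The median SE was 0.08. In a fit of only the 2 low groups, UQCRC2 and NDUFA4 were called higher, at 0.19 and 0.22 (adjusted p = 0.0291 and 0.0279). That fit called 6.27% of all genes, 3.72% higher.

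**Figure D5:**
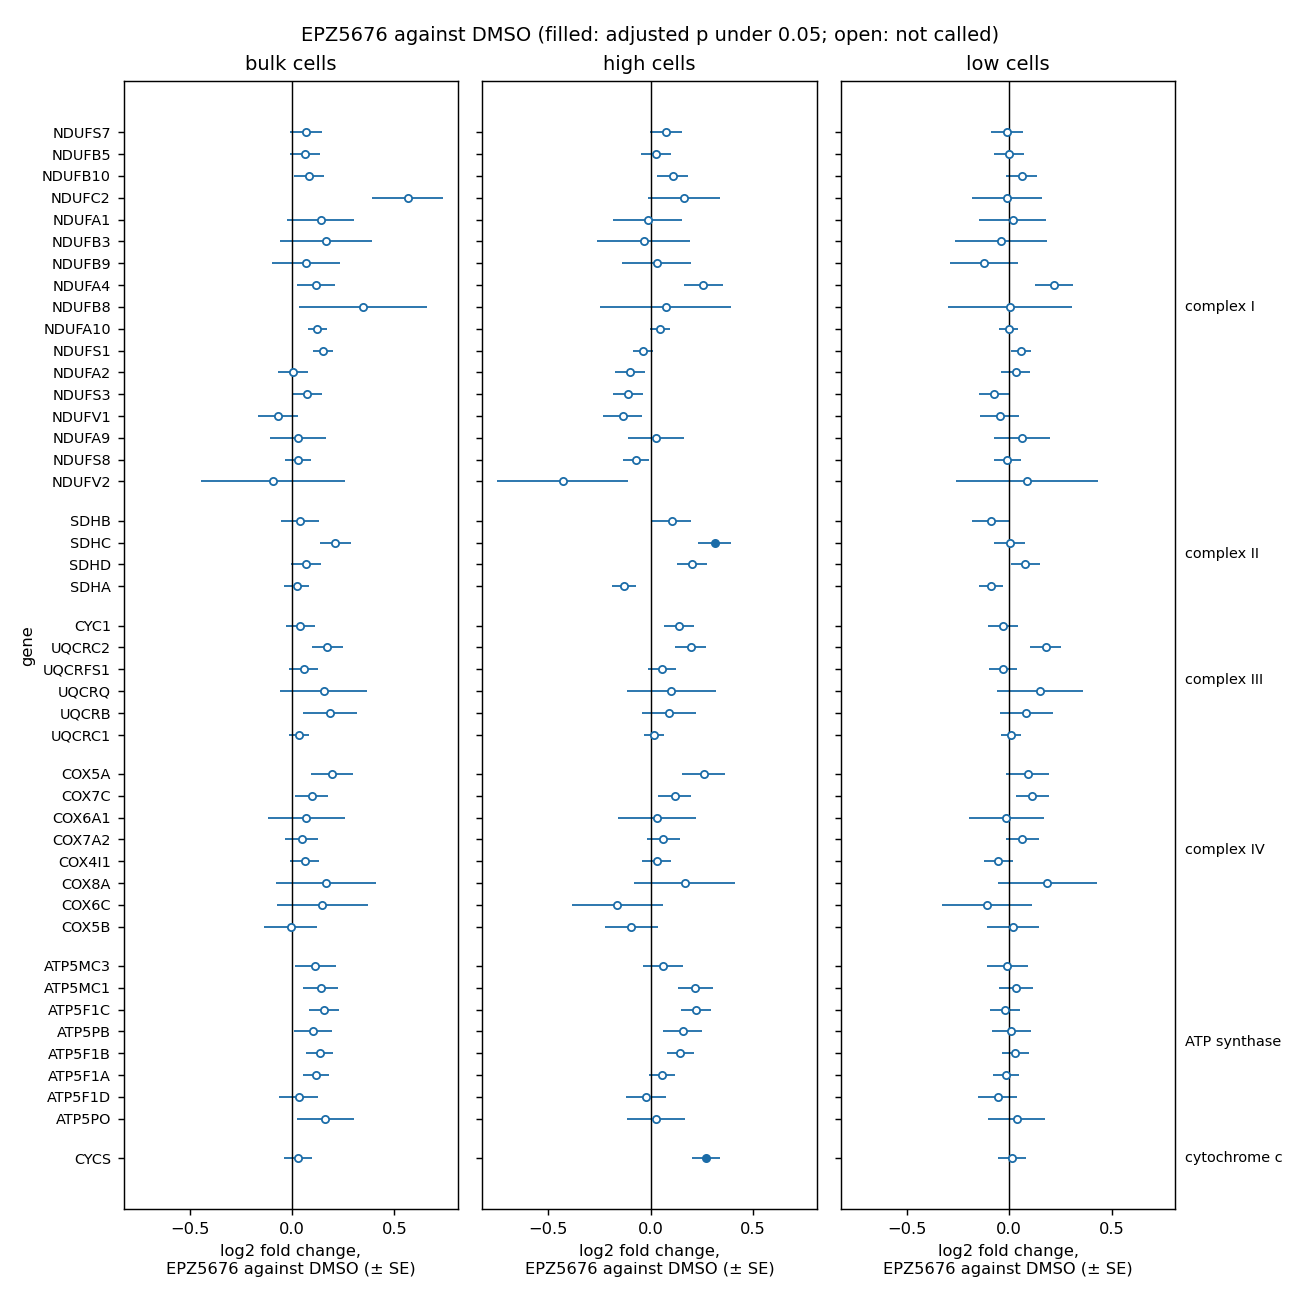
Log2 fold change of EPZ5676 against DMSO (x axis, ± SE) for each of the 44 genes (y axis, by complex) in bulk, high and low cells; filled points were called. SDHC and CYCS in high cells are the 2 filled points, and most other points lie within 0.25 of 0.

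The difference between high and low cells was not shown to depend on the treatment. The interaction called 0 of the 44 genes by edgeR, DESeq2 or limma-voom, where edgeR called 0.32% of all genes, 0.116% lower and 0.204% higher, and 3 genes had an unadjusted p under 0.05. For genes lower in high cells, a positive value here means a high cell level closer to the low cell level under EPZ5676. For NDUFS8 and NDUFV2, which were higher in high cells, a negative value means this. SDHC had 0.31 ± 0.11 (adjusted p = 0.271), CYCS 0.26 ± 0.10 (adjusted p = 0.319) and ATP5F1C 0.24 ± 0.10 (adjusted p = 0.381). SDHC in high cells was thus at 54.8% of the low level under DMSO and 67.9% under EPZ5676, and CYCS at 62.9% and 75.2%. ATP5MC1 followed with 0.19 ± 0.12 and CYC1 with 0.17 ± 0.10 (adjusted p = 0.601 and 0.57). The median over the 44 genes was 0.04, and 29 of the 44 values were positive. Without DMSO bulk replicate 1, with 18784 genes tested, SDHC, CYCS and ATP5F1C were called, with adjusted p of 0.0432, 0.0399 and 0.0487, in a fit that called 5.71% of all genes.

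Further genes of the respiratory chain were also mostly lower in high cells. Of 36 further nuclear subunits, 23 were called lower and 0 higher under DMSO, with a median of -0.36, and again 23 and 0 under EPZ5676, with 21 shared. Over all genes tested, 26.7% were lower and 29.6% higher under DMSO, and 23.1% and 25.8% under EPZ5676. NDUFA8 of complex I fell by 0.78 on the log2 scale and NDUFAB1, its acyl carrier protein, by 0.64. Of 47 assembly factors, 29 were lower and 2 higher under DMSO, with a median of -0.31. NDUFAF4, an assembly factor of complex I, had 16.6 ± 0.262 CPM in high and 38.2 ± 0.306 CPM in low cells, a difference of -1.20 ± 0.13 (adjusted p = 2.72e-07). COX10, which makes the heme of complex IV, differed by -0.91 ± 0.11. Under EPZ5676, 24 assembly factors were lower and 1 higher, and all 24 had been lower under DMSO. The 13 mitochondrially encoded subunits were listed at 0 in all 18 libraries, so nothing is said of their level.

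Most genes of the pathways that feed the chain were called lower in high cells, against 26.7% of all genes under DMSO and 23.1% under EPZ5676. The shares of all genes called higher were 29.6% and 25.8%. Of 18 genes of the citrate cycle and pyruvate dehydrogenase, 15 were called lower and 0 higher under DMSO, with a median of -0.55, and the same 15 under EPZ5676, with a median of -0.42. FH, which makes malate from fumarate, had 126 ± 8.55 CPM in high and 229 ± 4.02 CPM in low cells, or -0.86 ± 0.07 (adjusted p = 3.85e-09). CS, citrate synthase, differed by -0.61 ± 0.05 and SUCLG1 of succinyl-CoA ligase by -0.89 ± 0.09. Of 22 tested import, carrier and membrane proteins, 21 were lower under DMSO, with a median of -0.67, and 19 under EPZ5676, with a median of -0.40. The interaction values of these 22 genes had a median of 0.20 and none was negative, but only TOMM40 was called. Under DMSO, SLC25A5, the ADP/ATP carrier, had 334 ± 3.56 CPM in high and 606 ± 29.3 CPM in low cells. Of 76 tested mitochondrial ribosomal proteins, 56 were lower and 4 higher, with a median of -0.40, and 46 and 4 under EPZ5676.

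Regulators of these genes did not all move together. Of 10 genes, 8 were lower and 0 higher in high cells under each treatment, the same 8 in both. Among all genes, 26.7% were lower and 29.6% higher under DMSO, and 23.1% and 25.8% under EPZ5676. PPARGC1B, a coactivator of mitochondrial genes, had 9.35 ± 1.41 CPM in high and 33.5 ± 1.76 CPM in low DMSO cells, a difference of -1.85 ± 0.15 (adjusted p = 4.71e-09). PPARGC1A had 4.46 ± 0.616 against 16.5 ± 1.93 CPM, or -1.89 ± 0.16 (adjusted p = 5.53e-09), and ESRRA 39.4 ± 3.97 against 74.9 ± 5.06 CPM, or -0.93 ± 0.08. The 2 genes not called were NRF1 at 0.03 ± 0.08 (adjusted p = 0.741) and GABPA at 0.21 ± 0.10 (adjusted p = 0.0847). PPARGC1A was also called higher with EPZ5676, in bulk cells by 0.84 ± 0.14 (adjusted p = 0.00654) and in low cells by 0.61 ± 0.14 (adjusted p = 0.0322). In high cells none of the 10 genes was called with EPZ5676, although their values reached 0.59. The interaction called none of the 10, so a difference between the populations in this response was not shown.

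Glycolysis, the other source of ATP, was mixed. Of 20 genes, 13 were called lower and 5 higher in DMSO high cells, with a median of -0.22, and 10 and 4 under EPZ5676, with a median of -0.11. The shares of all genes were 26.7% lower and 29.6% higher under DMSO, and 23.1% and 25.8% under EPZ5676. GPI, the enzyme after hexokinase, differed by -0.60 ± 0.05. SLC16A3, a lactate exporter, had 840 ± 45.6 CPM in high and 495 ± 7.23 CPM in low cells, or 0.76 ± 0.07 (adjusted p = 1.42e-08), and PFKL, a phosphofructokinase, was higher by 0.46 ± 0.05. The other genes called higher were HK1, PDK1 and PKM.

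Markers moved with the sort beside these results. Under DMSO, all 8 melanoma markers were called lower in high cells, with sums of 1230 to 1450 CPM against 11300 to 11800 CPM. Of 8 tested fibroblast markers 7 were called higher, with sums over all 9 of 1180 to 1510 against 73.7 to 77.4 CPM, while LUM was lower (31.7 ± 5.15 against 67.8 ± 2.76 CPM) and THY1 was near 0 in both. Under EPZ5676 the melanoma sums were 1850 to 2020 against 14100 to 14300 CPM and the fibroblast sums 655 to 806 against 100 to 103 CPM. VWF, KDR and CLDN5 of the endothelial list and KRT10 of the keratinocyte list were also called higher in DMSO high cells. The part of these marker levels in the differences of the 44 genes was not tested.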

How the data were processed

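The authors deposited 1 table of raw counts, with genes as Ensembl identifiers. The submitters' processing notes name STAR, HTSeq and the build hg19. Versions, strand setting and annotation release are not given in the sources used here. Libraries were poly(A) selected, made with the NEBNext Ultra kit and sequenced in pairs, per the labels' protocols. The 5 HTSeq summary lines were left out of tests. Of the genes, 11151, with 0.922% of the gene counts, had no name.

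Counts were filtered with filterByExpr and scaled with TMM factors in edgeR 4.0.16 (R 4.3.3). A robust quasi-likelihood model of the 6 group means was fitted over 18 libraries and all 18121 genes, with Benjamini-Hochberg adjustment. SE came from the F statistic. The 6 comparisons were high against low under each treatment, EPZ5676 against DMSO in each population, and their interaction. The script was tested on simulated data. The genes and lists were chosen with earlier results of these data known. Genes were named by a rule: in each complex the 2 most negative and the most positive difference of high against low under DMSO, genes called higher, the 5 smallest p in each treatment comparison and the interaction, and up to 3 per pathway list. Other genes were chosen after their values were seen. The fit was repeated with RLE factors, with library size only, with no filter or a mean of 5 CPM, DESeq2 1.42.0, limma-voom (limma 3.58.1), a replicate block, the no-feature share as a covariate, fits of fewer groups and libraries left out. The covariate together with leaving out DMSO bulk replicate 1, and the split by certain counting, were chosen after seeing the data. Promoters came from RefSeq GRCh38.p14, and exon overlaps from GENCODE 29.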

Additional observations from a re-analysis of the deposited data

Results flagged for a closer look

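The interaction of treatment and sort tests whether the difference between high and low cells itself differs between treatments. It called 0.32% of all genes. Among the 44 genes and the pathway lists together, it called only TOMM40, the channel of the outer membrane import pore. TOMM40 had 121 ± 3.24 CPM in high and 202 ± 14.7 CPM in low cells under DMSO, and 149 ± 2.97 and 183 ± 1.23 CPM under EPZ5676. Its interaction value was 0.44 ± 0.08 on the log2 scale (adjusted p = 0.0238, edgeR's quasi-likelihood test). Over 30 alternatives, which count the fit without DMSO bulk replicate 1 under 2 settings, it was 0.39 to 0.49 and was called in 20. The call was lost without DMSO high replicate 1 or 3, DMSO low replicate 2 or 3, EPZ5676 high replicate 1 or 2, or any EPZ5676 low library (adjusted p = 0.0583 to 0.0943). Leaving out the 6 libraries of high no-feature share left EPZ5676 high replicate 3 alone in its group, and that fit is read only by its value, 0.40. TOMM40 was also called higher with EPZ5676 in high cells, by 0.30 ± 0.06 (adjusted p = 0.00702).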

How the results depend on the processing

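Of 1379 alternative values of named genes called at first, 0 changed sign, and of 3473 values of genes not called, 121 did, 27 of them for EPZ5676 in bulk cells and 40 in low cells. These numbers count the fit without DMSO bulk replicate 1 under 2 settings. The median for EPZ5676 in low cells, 0.01, was -0.01 with no filter and without EPZ5676 low replicate 2, and -0.04 without DMSO low replicate 1. The number of genes called lower in high cells was 27 to 40 under DMSO over all alternatives, where 11.1% to 34.2% of all genes were called lower. Leaving out the 6 libraries of high no-feature share left EPZ5676 high replicate 3 and EPZ5676 bulk replicate 2 alone in their groups. Counts of that fit are left out where those groups are compared. The other alternatives called at most 39 genes lower under EPZ5676 and kept at least 28 of the 31 calls made at first. In them 8.7% to 30.2% of all genes were called lower. Scaling by library size alone moved the medians from -0.45 to -0.52 and -0.51. The number called higher under DMSO, 2, was 1 with a mean of at least 5 CPM, without the 6 libraries of high no-feature share, and among the genes of certain counting, and 1 to 2 with 1 library left out. Under EPZ5676 the 1 call became 0 with library size alone and with no filter, and was 0 to 1 with 1 library left out. For EPZ5676 in bulk cells, 0 calls became 1 with no filter and were 0 to 1 with 1 library left out. For EPZ5676 in high cells, 2 calls became 6 with no filter, where 1.61% of all genes were called higher, and 1 with limma-voom (1.73%). They became 10 without DMSO bulk replicate 1 (18784 genes tested, 5.85% higher) and 11 when the covariate was added to that (5.89%). With only the groups compared they became 5 (4.02%). They were 0 to 10 with 1 library left out. For EPZ5676 in low cells, 0 calls became 1 with the covariate and DMSO bulk replicate 1 left out (2.91% of all genes higher). They became 2 with only the groups compared (3.72%). For the interaction, 0 calls became 3 without DMSO bulk replicate 1 (3.09% of all genes higher), 2 with the covariate as well (2.9%), and 0 to 3 with 1 library left out. The cause of these moves was not tested.

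Replicate numbers did not pair the samples: over 45 pairs with the same number, deviations from group means correlated at -0.34 to 0.296, and 7 of 18 libraries correlated best with their own number. With the replicate block, 35 genes were lower under DMSO and 33 under EPZ5676, where 26.5% and 23% of all genes were.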
